A study of Caenorhabditis elegans with 12 samples.

Results

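Long intergenic non-coding RNAs are transcripts made from the stretches between protein-coding genes, with no open reading frame known to be translated. In worms they were catalogued from RNA sequencing, most are weakly expressed and restricted to a stage or tissue, and few have a known role. The members described here were all genes of the count files whose name in the WBcel235 annotation begins with linc-. There were 169 such genes of 46589 in the files, out of 170 annotated, and linc-171 was not analysed here. Of the 169, 45 carried enough counts to be tested for differences and 124 did not.

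RNA was sequenced from whole Caenorhabditis elegans on adult day 1, with about 5000 worms from 3 plates behind each of 12 libraries. At 22 °C the worms were wild type (N2) or ung-1 mutants, and at 20 °C they were wild type or nth-1 mutants; ung-1 encodes a uracil-DNA glycosylase and nth-1 an endonuclease III glycosylase, both of which start base excision repair. Each of these 4 backgrounds was sequenced without a tau transgene, with the tau-aggregate transgene of strain BR5270 and with the anti-aggregate transgene of strain BR5271. Both transgenes drive a fragment of human tau in all neurons, prone to aggregate in BR5270 and altered against aggregation in BR5271, so a change in neurons is read through the RNA of the whole animal. By its title, the study concerns the effect of losing a glycosylase in a worm model of tauopathy.

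There was 1 library per combination, so p-values rest on a spread shared over all libraries, in which the noise of single libraries and whatever interplay of background and tau the fit does not model cannot be told apart. Library totals ran from 15124127 to 35204808 counts. The 3 mutant libraries at 20 °C carry ung-1 in their titles and nth-1 in their genotype label, and the genotype label was used. Levels are given as CPM, counts scaled to the TMM-adjusted size of each library. The ung-1 gene lay at 11.9 to 14.5 CPM in the ung-1 background and higher in every other library, up to 62.3 CPM. The nth-1 gene lay at 5.06 and 5.08 CPM in the no-tau and aggregate libraries labelled nth-1, called the nth-1 pair from here on. It lay at 11.3 CPM in the anti-aggregate library labelled nth-1, which goes partly against that label, and at 23.0 CPM or more elsewhere.

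The linc- genes together took 18892 counts over the 12 libraries, or 72.1 CPM of all raw counts. Of the 169, 39 had no count in any library, 61 had 1 to 14 counts over all libraries, and 30 had a count in every library. Between 56 and 87 were detected in a library, the most in wild type with aggregate tau at 22 °C. The 45 tested genes held 94.5% of these counts and linc-9 alone 18.4%, while no untested gene had more than 59 counts over all libraries. Tested genes lay on all nuclear chromosomes, with 14 of 34 tested on chromosome II and 3 of 33 on chromosome V. Their exons summed to a median of 533 bases, against 418 bases in the untested genes.

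The filter on low counts leaned on the conditions. Of the 45 tested genes, 8 (linc-17, linc-24, linc-34, linc-35, linc-64, linc-74, linc-91 and linc-96) reached its level of about 0.458 CPM in fewer than 2 libraries other than the wild-type pair with aggregate tau. A further 2, linc-36 and linc-66, reached it only in the nth-1 pair. Counts and medians over the tested genes are therefore descriptions of the genes that passed, not of all 169.

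Per kilobase of exon, linc-9 had the highest median level, 12.1 CPM per kilobase. It was followed by linc-4 with 8.18, linc-8 with 7.40, linc-15 with 7.07, linc-107 with 6.46 and linc-20 with 5.43 CPM per kilobase. Among them linc-4 (F13H8.15, chromosome II, 6268939 to 6269516, plus strand) varied least with condition, from 1.12 CPM in the aggregate library labelled nth-1 to 2.91 CPM in wild type at 20 °C, with a log2 fold change of aggregate against no tau on wild-type backgrounds of -0.45 (SE 0.57, adjusted p = 0.550, edgeR). The gene linc-107 (C30G12.8, chromosome II, 7287417 to 7287813, minus strand) ran from 1.04 CPM in wild type with anti-aggregate tau at 20 °C to 3.69 CPM in ung-1 with anti-aggregate tau, with 1.18 in the same comparison (SE 0.62, adjusted p = 0.200, edgeR). The nearest protein-coding genes, F13H8.2 at 848 bases from linc-4 and C30G12.2 at 2613 bases from linc-107, had log2 fold changes of -0.52 and 1.26 there, and neither passed.

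The summed linc- level was highest in the 2 wild-type libraries with aggregate tau. At 22 °C it was 48.81 CPM in wild type, 186.9 CPM with aggregate tau and 70.23 CPM with anti-aggregate tau, and in ung-1 59.84, 61.48 and 55.24 CPM in the same order. At 20 °C it was 40.95, 146.4 and 40.28 CPM in wild type, and 66.04, 67.80 and 36.83 CPM in the libraries labelled nth-1. The wild-type aggregate pair therefore stood above each of the other 10 libraries, which did not exceed 70.23 CPM. Of the sum, linc-9 and linc-20 made up 43.54% and 54.56% in that pair and 8.044% to 24.05% elsewhere. Without these 2 genes the sum was still highest in the pair, at 105.5 CPM at 22 °C and 66.53 CPM at 20 °C, but the second value was close to the 62.34 CPM of the aggregate library labelled nth-1.

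**Figure D1:**
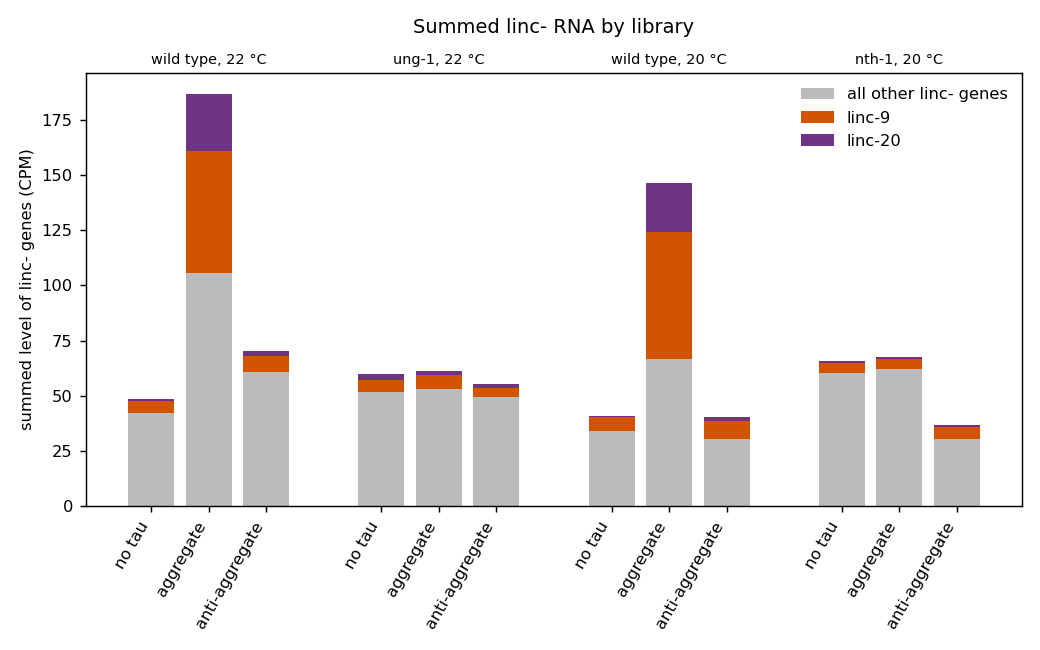
Summed level of all 169 linc- genes in each of the 12 libraries (CPM), split into linc-9, linc-20 and the other genes. The 2 wild-type libraries with aggregate tau reach 186.9 and 146.4 CPM, and no other library exceeds 70.23 CPM.

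The linc- genes called higher with aggregate tau on wild-type backgrounds were linc-9 and linc-20, and both had low levels when either glycosylase was missing. The gene linc-9 (F21A9.3) lies on chromosome I at 3703542 to 3704956 on the plus strand, with 465 exon bases in 4 exons. At 22 °C it was at 5.30 CPM in wild type, 55.5 CPM with aggregate tau and 7.19 CPM with anti-aggregate tau, and in ung-1 at 5.13, 6.31 and 3.86 CPM in the same order. At 20 °C it was at 5.99, 57.7 and 8.04 CPM in wild type and at 4.56, 4.28 and 5.25 CPM in the libraries labelled nth-1. The 2 wild-type aggregate libraries lay far above the range of the other 10, 3.86 to 8.04 CPM. Their exact 95% Poisson intervals, which cover counting error only, were 52.5 to 58.7 and 54.1 to 61.4 CPM, from 1258 and 977 counts.

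The gene linc-20 (T25D1.6) lies on chromosome X at 16508081 to 16509294 on the minus strand, with 319 exon bases in 3 exons. At 22 °C it was at 1.03 CPM in wild type, 25.9 CPM with aggregate tau and 2.27 CPM with anti-aggregate tau, and in ung-1 at 2.72, 2.09 and 1.82 CPM. At 20 °C it was at 0.709, 22.2 and 1.65 CPM in wild type, and at 1.26, 1.18 and 0.930 CPM in the libraries labelled nth-1. Again the wild-type aggregate pair did not overlap the other 10 libraries, which ran from 0.709 to 2.72 CPM. The pair's counts, 586 and 376, gave intervals of 23.8 to 28.0 and 20.0 to 24.6 CPM.

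**Figure D2:**
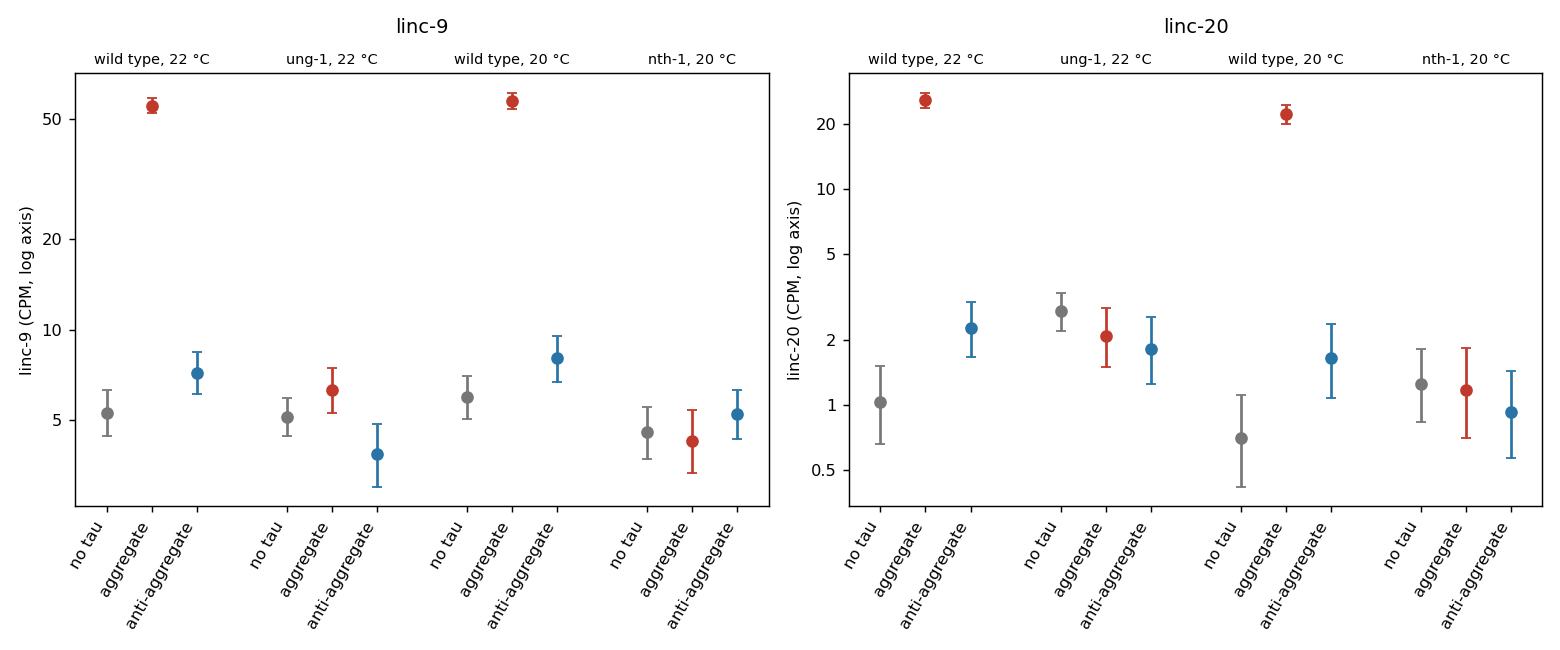
Levels of linc-9 and linc-20 in the 12 libraries (CPM, log axis), with exact 95% Poisson intervals of the counts. In both panels the wild-type aggregate libraries stand apart, at 55.5 and 57.7 CPM for linc-9 and at 25.9 and 22.2 CPM for linc-20, while the aggregate libraries of both mutants sit among the rest.

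Against no tau on wild-type backgrounds, linc-20 rose with a log2 fold change (log2FC) of 4.80 (SE 0.44, adjusted p = 0.0107, edgeR quasi-likelihood test) and linc-9 with 3.33 (SE 0.36, adjusted p = 0.0128, edgeR). The rise was seen in both pairs, 4.54 at 22 °C and 4.80 at 20 °C for linc-20, and 3.37 and 3.25 for linc-9. These were the 2 linc- genes called higher of the 45 tested, and 0 were called lower. Of all 15245 genes tested, 1.49% were called higher and 0.0197% lower. Leaving out either wild-type library without tau or either wild-type aggregate library left 0 of these calls, and leaving out ung-1 or the no-tau library labelled nth-1 left linc-20 only, whereas leaving out either mutant anti-aggregate library gave 13 calls, DESeq2 7 and leaving out all 3 libraries labelled nth-1 9. Over all alternatives run the log2FC stayed between 4.67 and 5.01 for linc-20 and between 3.24 and 3.53 for linc-9.

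Against the anti-aggregate strain, in which tau is also present, linc-20 was higher, with a log2FC of 3.63 (SE 0.42, adjusted p = 0.0186, edgeR), as was linc-9, with 2.90 (SE 0.35, adjusted p = 0.0186, edgeR). Here too these were 2 of 45 linc- genes, with 0 called lower, where 0.951% of all genes were called higher and 0.0262% lower. Both calls were lost on leaving out any 1 of the 6 wild-type libraries, ung-1 or the no-tau library labelled nth-1, and leaving out the anti-aggregate library of ung-1 or of the nth-1 label gave 5 or 6 calls; DESeq2 gave 4. The log2FC stayed between 3.50 and 3.85 for linc-20 and between 2.85 and 3.12 for linc-9 over all alternatives run. In the anti-aggregate strain itself, linc-20 lay above wild type without tau by log2 ratios of 1.08 and 1.12 at the 2 temperatures, a difference that was not tested by itself. In the mutants the same ratio was -0.56 in ung-1 and -0.41 under the nth-1 label, and over all 4 backgrounds the fitted log2FC was 0.00 (SE 0.90, adjusted p = 1, edgeR).

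In the comparison of glycosylase loss within the aggregate strain, both genes were lower in the mutant libraries than in the wild-type ones. The log2 fold change was -3.93 for linc-20 (SE 0.43, adjusted p = 0.0125, edgeR) and -3.42 for linc-9 (SE 0.36, adjusted p = 0.0119, edgeR). For linc-9 the ratio was -3.12 for ung-1 and -3.73 for the nth-1 label, and for linc-20 -3.57 and -4.13. They were 2 of 45 linc- genes called lower, and 0 were called higher, where 0.977% of all genes were called lower and 0.00656% higher. Both calls were lost without either wild-type library lacking tau, without any of the 4 aggregate libraries or without ung-1, and linc-9 also without the no-tau library labelled nth-1, while the log2FC stayed between -4.17 and -3.71 for linc-20 and between -3.79 and -3.09 for linc-9. This comparison and the 2 before it share the wild-type aggregate libraries, so they are not separate evidence.

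In the mutants the libraries with and without aggregate tau had similar levels of both genes. The log2 ratio of aggregate to no tau was 0.29 in ung-1 and -0.09 in the libraries labelled nth-1 for linc-9, and -0.37 and -0.10 for linc-20. The interaction of aggregate tau with glycosylase loss was -5.05 for linc-20 (SE 0.57, adjusted p = 0.0510, edgeR) and -3.21 for linc-9 (SE 0.47, adjusted p = 0.117, edgeR). Neither passed the threshold of 0.05, and 0 of 45 linc- genes did, with 0.0131% of all genes called. Below an unadjusted p of 0.05 (edgeR) were 8 of the 45 linc- genes, beside 1783 of all 15245 tested genes. Of 19 alternatives linc-20 passed in 8 and linc-9 in 5. Both passed under DESeq2, with a minimum of 1 CPM in 6 libraries, without either mutant anti-aggregate library and without all 3 libraries labelled nth-1. Under limma voom, total counts and no filter linc-20 passed and linc-9 did not.

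Of the genes around linc-9, none was called. Of 7 genes within 10 kb, 6 were tested and 0 were called in the comparison of aggregate with no tau on wild-type backgrounds. The nearest protein-coding gene, F21A9.2, 1074 bases away on the other strand, had a log2 fold change of -0.09 (adjusted p = 0.906, edgeR). The mismatch repair gene msh-2 had -0.66 and the checkpoint gene hus-1 -0.63, while F21A9.1, 5134 bases away, had 5.15 without passing (adjusted p = 0.115, edgeR), and -5.75 for glycosylase loss within the aggregate strain (adjusted p = 0.276, edgeR). The gene linc-20 lies inside the span of T25D1.3 on the opposite strand but shares no exon base with it, and T25D1.3 had at most 6 counts in a library. Neither linc-9 nor linc-20 shares exon bases with an annotated gene, so their counts do not come from an annotated overlapping exon.

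Of the 43 tested linc- genes other than linc-9 and linc-20, none passed the test against no tau, and 35 had a positive log2 fold change, with a median of 1.29. Over all 45 tested linc- genes 37 were positive and the median was 1.50. Of all 15245 tested genes 9243 were positive, with a median of 0.46. With linc-36 and linc-66, which had no count in the no-tau pair, set to the bound that 3 counts over the group give, the median over the 45 was 1.29. In both pairs 28 of the 43 were higher and 4 lower. Over the 45 that was 30 (66.7%) and 4 (8.89%), beside 52.3% and 33.8% of all tested genes. Both wild-type aggregate libraries lay above each of the other 10 in 12 of the 45 (26.7%), where 9.64% of all tested genes did so. That share is no support for a difference from other genes, since 5 of the 12 (linc-17, linc-24, linc-35, linc-64 and linc-91) reached the filter level in fewer than 2 libraries outside the pair and were tested through it. With library totals alone as the scale the median over the 45 was 1.70, and 0.67 over all genes.

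**Figure D3:**
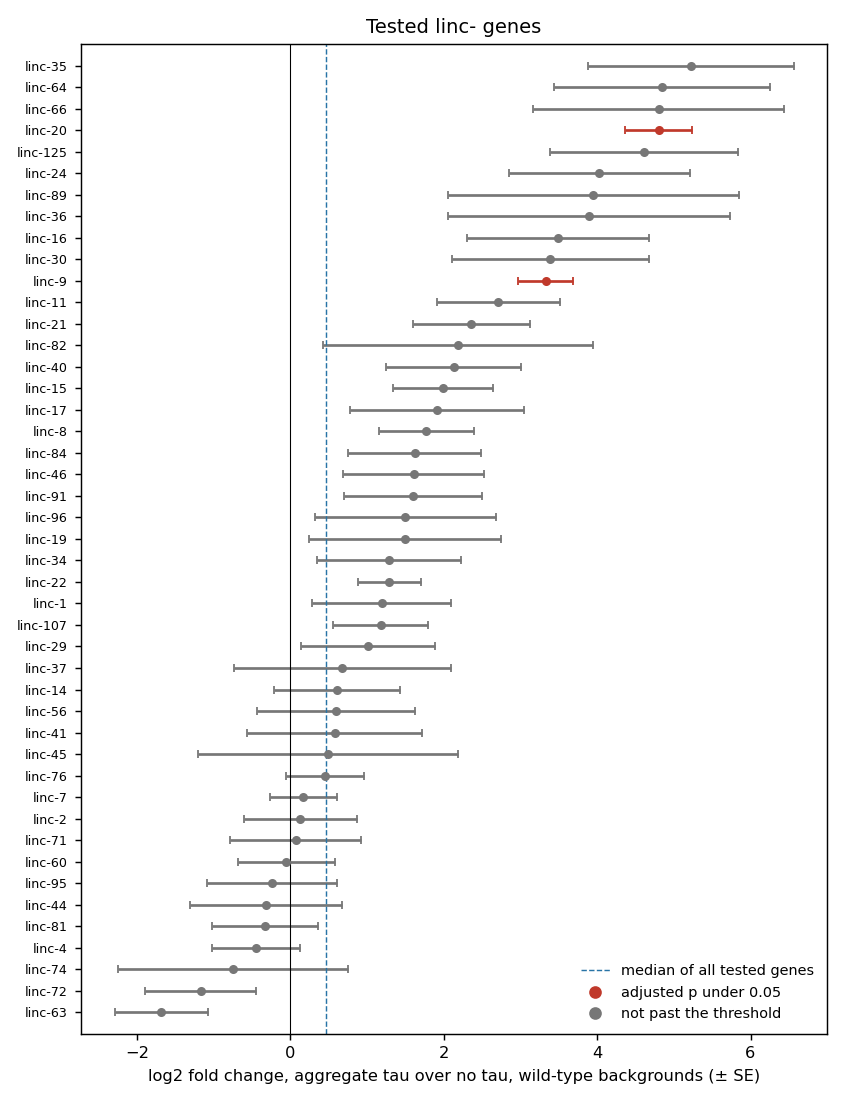
Log2 fold change of aggregate tau against no tau on wild-type backgrounds for the 45 tested linc- genes, with standard errors derived from the edgeR test statistic. As linc-36 and linc-66 had no count in the no-tau pair, their fitted values and standard errors are not measured sizes. Only linc-20 (4.80) and linc-9 (3.33) passed an adjusted p of 0.05, and the dashed line marks the median of all tested genes, 0.46.

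Among the named genes short of the threshold, linc-11 (Y49F6C.11, chromosome II, 3373169 to 3374185, minus strand) stood at 11 CPM (249 counts) in the wild-type aggregate library at 22 °C and 2.60 CPM at 20 °C. The other 10 libraries had 0.244 to 1.43 CPM, and the log2 fold change against no tau was 2.71 (SE 0.80, adjusted p = 0.112, edgeR). The pair thus lay above the rest but differed within itself more than linc-9 did. The gene linc-15 (C49F5.10, chromosome X, 11991484 to 11991933, minus strand) was at 5.38 and 4.31 CPM in the pair and at 0.792 to 3.20 CPM elsewhere (log2 fold change 1.99, SE 0.65, adjusted p = 0.120, edgeR). Its nearest protein-coding neighbour, C49F5.6, 192 bases away, had -0.93 (adjusted p = 0.133, edgeR), and bath-10, 894 bases from linc-11, had -0.74 (adjusted p = 0.476, edgeR).

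The gene linc-35 (F22D3.10, chromosome II, 6927637 to 6927825, minus strand) was detected in 11 of the 12 libraries. It had 1.15 and 2.18 CPM in the wild-type aggregate libraries and 0 to 0.371 CPM in the other 10. The no-tau wild-type libraries were among the lowest, and against them it had 63 counts to 2, a ratio of 39.6 with a counting interval of 10.5 to 334, and the test gave an adjusted p of 0.104 (edgeR). F22D3.4, a protein-coding gene 34 bases away on the same strand, was highest in the nth-1 pair, at 6.14 and 4.52 CPM. It was next highest in the wild-type aggregate pair, at 0.618 and 0.708 CPM, with at most 0.371 CPM in the remaining libraries. Its log2 fold change against no tau was 1.84 (adjusted p = 0.257, edgeR). The genes linc-22 and linc-64, picked after their values were seen, also had their 2 highest libraries in the pair. There linc-22 had 13.4 and 8.03 CPM and linc-64 had 2.25 and 0.708 CPM. Both linc-35 and linc-64 reached the filter level in no library outside the pair. They were tested only through the libraries where they were high, so their values are no support for a difference.

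The gene linc-72 (F46C5.14, chromosome II, 8819542 to 8820163, plus strand) ran the other way. Its lowest levels were those of the wild-type aggregate pair, 0.132 and 0.177 CPM, and its highest those of the nth-1 pair, 3.70 and 2.91 CPM. The other 8 libraries had 0.287 to 1.14 CPM, so neither pair overlapped them. Within the aggregate strain, loss of either glycosylase gave linc-72 a log2 fold change of 3.39, short of the threshold (SE 0.72, adjusted p = 0.104, edgeR). It shares 11 exon bases with F46C5.1 on the opposite strand, and F46C5.1 was at 0.136 and 0 CPM in the libraries where linc-72 was highest.

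**Figure D4:**
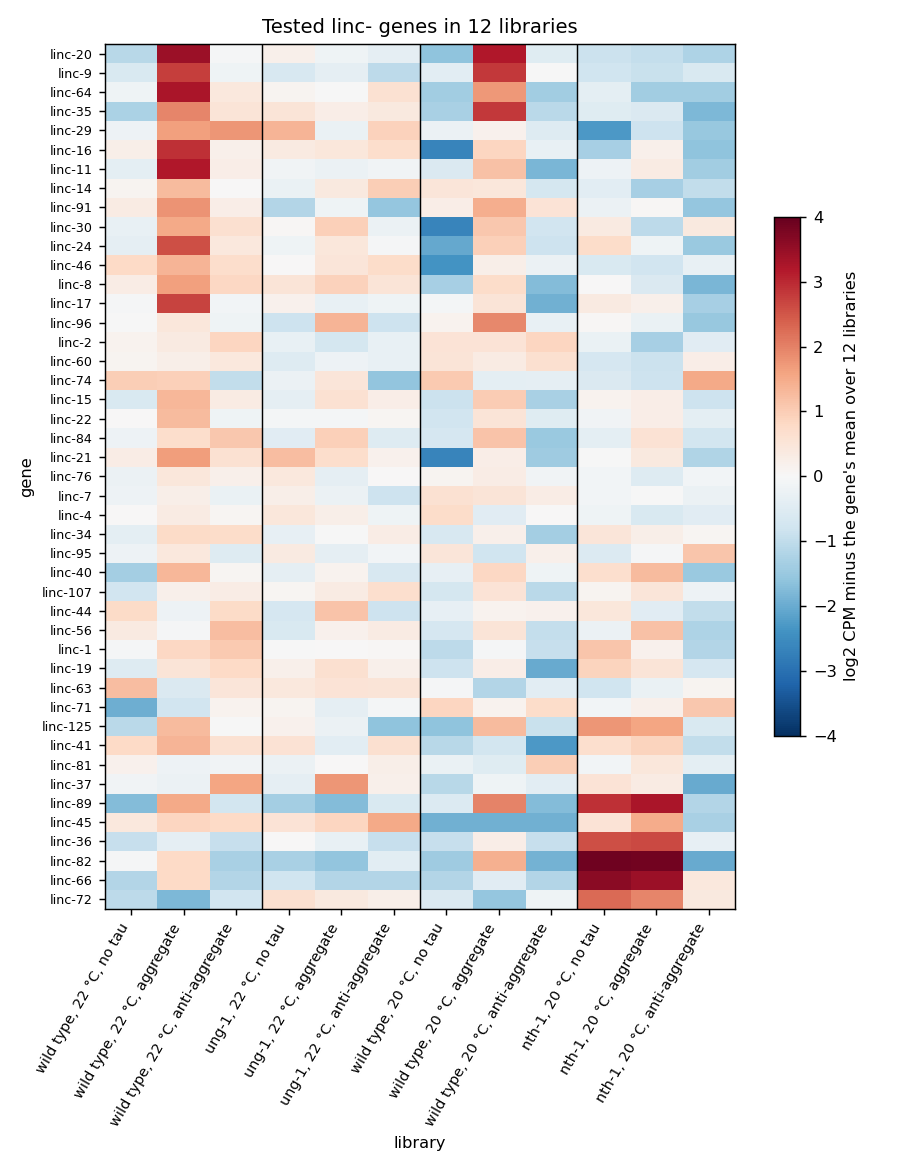
Levels of the 45 tested linc- genes in the 12 libraries, as log2 CPM minus each gene's mean (colour). The wild-type aggregate columns are high for linc-9, linc-20 and a group below them, and the no-tau and aggregate columns labelled nth-1 are high for another group with linc-36, linc-66, linc-82 and linc-89.

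Marker lists for other tissues differed between the same libraries. In bulk RNA, fewer cells of a type and less RNA per cell cannot be told apart. Sperm genes summed to 862 and 1114 CPM in the wild-type aggregate pair, to 253 and 454 CPM in wild type without tau and to 437 and 279 CPM in wild type with anti-aggregate tau. Of 79 tested sperm genes 77 had a positive log2 fold change against no tau, and msp-32 and nspd-8 had no count in any library. Cuticle collagens summed to 25700 and 28036 CPM in the pair and to 7857 to 9548 CPM in the other 4 wild-type libraries; 114 of 117 tested were positive, and col-37, col-148, col-171 and col-185 had no count. All 11 germline and all 8 oocyte genes had negative fold changes, and none of either list was at 0 in all libraries. Body wall muscle genes summed to 2654 and 3095 CPM in the pair, with 7 of 7 positive. Neuronal genes summed to 278 and 255 CPM in the pair and to 164 to 250 CPM in the other 4 wild-type libraries, with 9 of 9 positive (median 1.12). Intestine genes summed to 3780 and 3488 CPM, inside the 1915 to 6542 CPM of those 4 libraries, with 6 of 6 positive (median 0.98). Yolk genes summed to 48311 and 49660 CPM, also inside their range, with 1 of 6 positive. Against all other 10 libraries, the nth-1 pair included, the sums of sperm, collagen, muscle and neuronal genes in the pair were not the highest.

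The nth-1 pair had the highest sums of sperm genes, 5618 and 6006 CPM, of collagens, 51667 and 54115 CPM, and of body wall muscle genes, 8012 and 8270 CPM. In these 2 libraries linc-9 was at 4.56 and 4.28 CPM and linc-20 at 1.26 and 1.18 CPM, within the range of the libraries with low sums. The part of these lists in the levels of linc- genes was not tested. Of 11 genes for nonsense-mediated decay factors, which clear faulty and some non-coding transcripts, 1 was called lower with aggregate tau on wild-type backgrounds. This was smg-3, at 31.9 and 48.0 CPM in the wild-type aggregate pair and 94.9 to 170 CPM elsewhere (log2 fold change -1.96, SE 0.19, adjusted p = 0.0110, edgeR). Its part in the linc- levels was not tested.

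Other transcript classes were read beside the linc- genes in the comparison of aggregate with no tau on wild-type backgrounds. Of 9 tested lincRNA genes without a linc- name 1 was called higher, with a class median of 1.34. Of 94 tested ncRNA genes 1 was called higher, with a median of 0.44. Of 633 tested pseudogenes 66 were called higher, 10.43%, with a median of 2.47. Of 14235 tested protein-coding genes 154 were called higher and 3 lower, with a median of 0.39. The linc- genes thus had a median between those of protein-coding genes and pseudogenes, a description with no test.

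Several linc- genes had their highest levels in the nth-1 pair. In the comparison of nth-1 with wild type at 20 °C, however, 0 of 45 passed the test (edgeR), as did 0% of all genes. Below an unadjusted p of 0.05 (edgeR) were 7 of the 45 linc- genes, beside 5575 of all 15245 tested genes. DESeq2 called 2, linc-72 and linc-82, and limma voom 2, linc-66 and linc-72. Of the 45, 27 had a positive log2 fold change, beside 8620 of all 15245 tested genes, with medians of 0.25 and 0.17. This is an average over pairs that differed. Without tau 31 of 45 were higher (median log2 ratio 0.79), beside 58.57% of all tested genes (median 0.4). With aggregate tau 19 were higher (median -0.33), beside 52.54% (median 0.05). With anti-aggregate tau 22 were higher (median 0.00), beside 52.63% (median 0.05). Leaving out the anti-aggregate library labelled nth-1, whose nth-1 level is partly against that label, gave 4 calls. These were linc-45, linc-66, linc-72 and linc-82, all higher. Leaving out ung-1 with aggregate tau or scaling by library totals gave 1, linc-66. The share of all genes called under these settings, DESeq2 and limma voom is not given here. The calls are therefore not read as particular to linc- genes. In 6 linc- genes (13.3%) both libraries of the nth-1 pair were above each of the other 10, beside 27.7% of all tested genes.

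The gene linc-66 (D2062.14, chromosome II, 2615725 to 2616219, minus strand) was at 2.44 and 2.11 CPM in those 2 libraries and at 0.186 CPM in the anti-aggregate library of that label. In the 9 others it was at 0 to 0.265 CPM. The 3 libraries labelled nth-1 held 92 counts and the 3 wild-type libraries at 20 °C held 1, a ratio of 90.4 with a counting interval of 15.8 to 3609 (adjusted p = 0.0692, edgeR). The gene linc-36 (F41H10.37, chromosome IV, 5380408 to 5381217, minus strand) was at 0.949 and 0.992 CPM in the same 2 libraries and at most 0.118 CPM elsewhere. Its counts were 38 to 2, a ratio of 18.7 with a counting interval of 4.83 to 160 (adjusted p = 0.0731, edgeR). Both linc-66 and linc-36 reached the filter level only in the nth-1 pair. They were tested only through the libraries where they were high, so their values are no support for a difference.

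The protein-coding neighbours of both had their highest levels in the same libraries. The gene msrp-5, 715 bases from linc-66, was at 38.8 and 37.4 CPM there and at most 4.49 CPM elsewhere, and F41H10.2, 417 bases from linc-36, was at 52.9 and 58.3 CPM and at most 9.03 CPM elsewhere. Neither neighbour passed (adjusted p = 0.110 and 0.109, edgeR). The genes linc-82 and linc-89, picked after their values were seen, followed the same order: linc-82 was at 8.27 and 8.06 CPM and at most 1.42 CPM elsewhere, and linc-89 at 2.26 and 2.91 CPM and at most 1.12 CPM elsewhere. Of the exon bases of linc-89, 47.2% are shared with C04C3.7 on the same strand, so its counts are uncertain. These are the libraries with the highest sperm, collagen and muscle sums, and the part of those tissues in the linc- values was not tested.

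**Figure D5:**
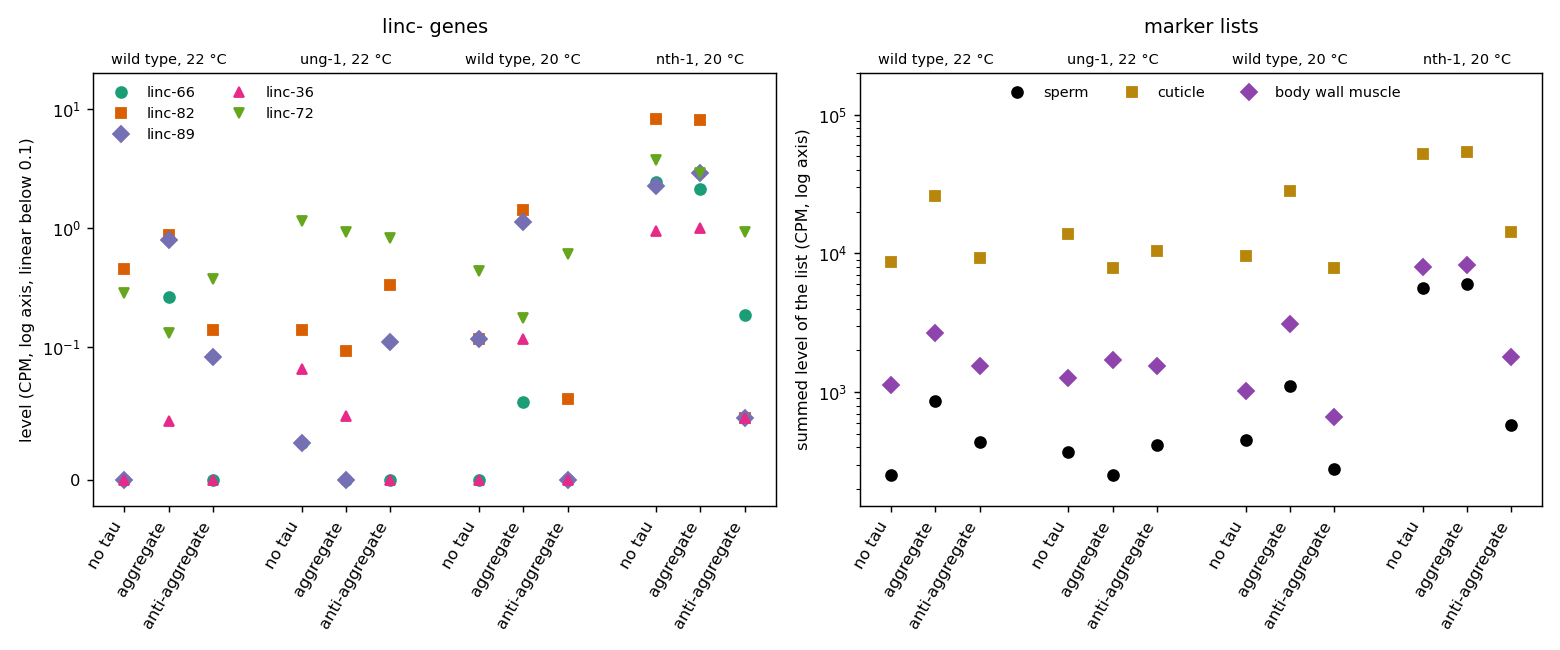
Left, levels of linc-36, linc-66, linc-72, linc-82 and linc-89 in the 12 libraries (CPM, log axis, linear below 0.1); right, summed levels of the sperm, cuticle and body wall muscle lists (CPM, log axis). In the no-tau and aggregate libraries labelled nth-1 the 5 genes and the 3 lists have their highest values, while the anti-aggregate library of that label lies near the others.

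Levels of linc- genes tended to be higher at 22 °C than at 20 °C, without passing the test. On the wild-type background 34 of 45 genes had a positive log2 fold change of 22 °C against 20 °C, beside 7949 of all 15245 tested genes. The medians were 0.66 and 0.03. The 34 and the 0.66 describe only the linc- genes that passed the filter on low counts. In all 3 pairs matched by tau state 19 (42.2%) were higher and 6 (13.3%) lower at 22 °C, beside 20.5% and 19.3% of all genes. Yet 0 of 45 passed (edgeR, and likewise DESeq2 and limma voom), as did 0% of all genes. Below an unadjusted p of 0.05 (edgeR) were 6 of the 45 linc- genes, beside 1147 of all 15245 tested genes. Each temperature has 1 library per tau state on this background. The 22 °C libraries were also the set with ung-1 and the 20 °C libraries the set with nth-1. Temperature and set of libraries therefore cannot be told apart.

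The gene linc-45 (C44B11.9, chromosome III, 3151809 to 3152607, plus strand) had the smallest p in this comparison. It was at 0.369, 0.530 and 0.510 CPM in the wild-type libraries at 22 °C and had no count in the 3 at 20 °C, which allows up to 0.118 to 0.183 CPM in each. With 32 counts to 0 it was at least 9.14-fold higher at 22 °C, against a floor of 3 counts over the group (adjusted p = 0.527, edgeR). At 20 °C it was present in the nth-1 pair, at 0.407 and 0.868 CPM. Its neighbour C44B11.6, 541 bases away, had 1.43 for temperature (adjusted p = 0.650, edgeR). The gene linc-8 (F59H5.6, chromosome II, 2501838 to 2503802, minus strand) was at 6.08, 15.4 and 8.72 CPM in wild type without tau, with aggregate and with anti-aggregate tau at 22 °C. Its levels at 20 °C were 1.89, 8.09 and 1.40 CPM in the same order, lower in each pair, and the fitted log2FC was 1.66 (SE 0.60, adjusted p = 0.650, edgeR). For aggregate against no tau on wild-type backgrounds linc-8 had 1.77 (SE 0.62, adjusted p = 0.124, edgeR), and its neighbour gbas-1, 1076 bases away, -0.50 (adjusted p = 0.148, edgeR).

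The remaining comparisons gave no call among the linc- genes. Averaged over the 4 backgrounds, aggregate against no tau gave 36 of 45 positive fold changes with a median of 0.79 (9127 of 15245 and 0.26 over all genes). It gave 0 calls beside 0% of all genes, with 7 of 45 below an unadjusted p of 0.05 (edgeR) beside 1874 of all genes. There linc-9 had 1.95 (SE 0.66, adjusted p = 0.363, edgeR), an average over 2 backgrounds with a large difference and 2 with almost none. Anti-aggregate against no tau over the 4 backgrounds gave 19 of 45 positive with a median of -0.12 (7584 of 15245 and 0.00 over all genes). It gave 0 calls beside 0% of all genes, with 2 of 45 below an unadjusted p of 0.05 (edgeR) beside 253 of all genes. For ung-1 against wild type at 22 °C, 8 of 45 were positive with a median of -0.47 (8290 of 15245 and 0.03 over all genes). Again there were 0 calls beside 0% of all genes, with 2 of 45 below an unadjusted p of 0.05 (edgeR) beside 160 of all genes. The ung-1 pairs went opposite ways. Without tau 28 of 45 were higher in ung-1 (median log2 ratio 0.20), beside 53.79% of all tested genes (median 0.03). With aggregate tau 13 of 45 were higher (median -0.80), beside 49.15% of all tested genes (median -0.02). In all 3 ung-1 pairs 3 were higher (6.67%) and 5 lower (11.1%), beside 7.67% and 8.06% of all genes. DESeq2 and limma voom also gave 0 calls in these 3 comparisons.

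Position limits how far some of these counts can be assigned. A span overlapping a protein-coding gene was annotated for 38 of the 169 genes, and 58 share exon bases with another annotated gene, among them 17 of the 45 tested. All exon bases of linc-71 lie in cyh-1 and 87.3% of those of linc-16 in fbxa-3, both on the same strand, so their values are uncertain. The median distance to the nearest protein-coding gene was 625 bases over all 169 and 407 bases over the tested genes. Across the 40 tested linc- genes with a tested nearest neighbour, which share libraries and depth, the fold changes of gene and neighbour had a Spearman rho of 0.33 for aggregate against no tau on wild-type backgrounds. For glycosylase loss within the aggregate strain rho was -0.08.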

How the data were processed

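The deposited files hold 1 raw read count per gene and library, whole numbers with different totals, from reads aligned with HISAT2 to WBcel235, and the authors used edgeR 3.22.5, per the submitters' processing notes. How reads were assigned to genes (program, strand, reads with several matches, annotation) is not given in the sources used here. Of 46589 identifiers, 46180 matched the Ensembl 115 annotation, and the others held 0.228% of counts. Members and lists were chosen with earlier results of these data known.

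Counts were tested on all 15245 genes kept by the default filter of edgeR 4.0.16 (R 4.3.3), with TMM scaling, the quasi-likelihood test and Benjamini-Hochberg adjustment at 0.05 over all genes. Background and tau state entered an additive fit with 6 residual degrees of freedom. A fit with glycosylase loss by tau state, with 4, served the 3 comparisons of aggregate libraries and the interaction. Standard errors (SE) were derived as the absolute log2 fold change divided by the square root of the F statistic of that test. Levels are CPM on TMM-scaled library sizes, and log2 ratios of single libraries used a prior count of 2. The tests were tried on simulated counts. Alternatives were 2 other scalings, 2 filters, DESeq2 1.42.0, limma voom (3.58.1), leaving out each library and leaving out the 3 libraries labelled nth-1.

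Named genes were those past the threshold in any of 9 comparisons, the 5 with the highest median level per kilobase, and further genes by smallest p up to 12. The targeted genes and 8 tissue marker lists were read as CPM.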

Additional observations from a re-analysis of the deposited data

How the results depend on the processing

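Of the counts of linc- genes past the threshold, 4 were 0 under every alternative run: aggregate and anti-aggregate tau over 4 backgrounds, ung-1, and temperature. No direction of a named gene's call reversed. For aggregate against no tau on wild-type backgrounds the 2 calls became 7 with DESeq2 and 9 without the 3 libraries labelled nth-1, and 0 to 13 when single libraries were left out, the 13 without either mutant anti-aggregate library. For aggregate against anti-aggregate tau the 2 calls became 4 with DESeq2 and 0 to 6 on leaving out single libraries, the 5 and 6 without those same mutant libraries. For glycosylase loss within the aggregate strain the range was 0 to 2. For the interaction, 0 calls became 1 with total counts, with no filter and with limma voom, and 2 with a minimum of 1 CPM in 6 libraries, with DESeq2 and without the 3 libraries labelled nth-1, with 0 to 2 on leaving out single libraries. For nth-1 against wild type, 0 became 1 with total counts and 2 with DESeq2 and with limma voom, with 0 to 4 on leaving out single libraries. For aggregate against no tau all genes moved alike, with 230 called, 3330 with DESeq2 and 3811 without the libraries labelled nth-1. For the other comparisons the counts over all genes under these alternatives are not given here. Fits without a wild-type library leave 1 library in an arm, assumed to vary like the others. The cause of the other changes was not tested. No pairing by replicate was possible because the labels carry no replicate numbers to block on. Libraries were instead matched by background, a term of every fit. The 124 untested genes had a median of 3 counts over all libraries, and whether more depth would bring them to a test was not tested.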
